A study of Mus musculus with 7 samples.

Results

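The genes described here are the 10 that encode the G1 cyclins (Ccnd1, Ccnd2, Ccnd3, Ccne1 and Ccne2), the kinases that D-type cyclins bind (Cdk4 and Cdk6) and the retinoblastoma family (Rb1, Rbl1 and Rbl2). They were chosen by symbol, and all 10 were found among the 48440 genes of the deposited table. Their RNA was measured in LSK cells, the Lin-Sca1+cKit+ compartment of bone marrow (BM) where hematopoietic stem cells (HSCs) and multipotent progenitors are found. The cells came from C57BL/6 mice that were irradiated with 9.5 Gy, were given BM from either wild-type donors or donors carrying a constitutive endonuclease-mediated PROSER1 KO, and gave LSK cells 77 days later. There were 4 wild-type and 3 PROSER1 KO libraries, the age of the mice and any pooling of animals were not given in the sources used here, and no sort on a donor marker is named for these cells, so that LSK cells left from the recipient cannot be told apart from donor cells. The labels call the libraries biological replicates without naming animals, and p-values measure only the spread between these libraries.

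D-type cyclins are made when a cell receives growth signals and activate CDK4 and CDK6. These kinases phosphorylate the retinoblastoma protein and its relatives p107 and p130, the pocket proteins, which in their unphosphorylated form hold back E2F transcription factors. Free E2F then drives genes of DNA replication, among them those of cyclin E, which activates CDK2 and carries the cell into S phase. Most HSCs rest outside the cycle and the multipotent progenitors of the LSK population divide more often, so that this step is where stem cell quiescence and progenitor division part. In HSCs, the level of CDK6 is known to bear on how fast a resting cell returns to the cycle.

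Between 33143619 and 45140743 read pairs were counted on genes per library. The deposited values are normalized counts, which are read pairs divided by 1 size factor per library. Genes whose normalized counts averaged 10 or more (16251) were tested, and limma on log2(normalized count + 1) called 42 genes (0.258%), a call being an adjusted p (Benjamini-Hochberg) under 0.05 together with more than a 1.5-fold difference. The targeted gene was not lower in its KO. Proser1 showed normalized counts of 2019.4 to 2153 in the wild-type libraries and 2338 to 2464 under the PROSER1 KO label, so that the direction of every difference below rests on the labels. The genes of the LSK gate were abundant in all libraries, with 25535 to 32357 normalized counts of Kit and 3961 to 6822 of Ly6a, the gene of Sca1. Genes of plasma cells, which the gate should not hold, were abundant too. The 10 genes of the plasma cell list took 3.63% to 7.93% of all normalized counts in wild-type and 3.41% to 4.88% under the PROSER1 KO label. Most of this came from the immunoglobulin genes Ighm and Igkc (wild-type means 1391930 and 601127), so that it is mainly a share of immunoglobulin RNA.

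All 10 genes passed the minimum mean count, and none was called as differentially expressed. limma called 0 of 10, edgeR 0 and DESeq2 0, against 0.258%, 0.246% and 0.873% of all genes tested with each tool. Without adjustment, p was under 0.05 for 4 of 10 with limma (Ccnd1, Ccnd2, Cdk6 and Ccne2; 9.73% of all genes tested) and 3 with edgeR and with DESeq2 (Ccnd2, Cdk6 and Ccne2; 9.86% and 9.32%). In the fit on all 7 libraries, the 95% intervals of all 10 log2 fold changes lay within a 1.5-fold change in either direction. Their bounds ran from -0.29 (Rb1) to 0.51 (Ccne2). Each interval was set for 1 gene and not for the 10 together. Without PROSER1 KO replicate 1, the interval of Ccne2 reached 0.60, past a 1.5-fold change (0.58 on the log2 scale). The median log2 fold change of the 10 genes was 0.08, against 0.00148 over all genes tested. Of the 10, 7 were above 0 and 3 below, while 50.6% of all genes tested were above 0. The groups did not overlap in 3 of the 10 (Ccnd1, Ccnd2 and Ccne2), against 10% of all genes tested (5.17% higher and 4.83% lower in PROSER1 KO). Without the first PROSER1 KO replicate this count was 5, with Ccnd3 and Rbl1 added, against 19.0% of all genes. The least abundant gene, Ccne1, had 257 read pairs in its lowest library, a counting error of 6.24%, and Cdk6 had 26644, an error of 0.613%. The coefficient of variation within a group was between 1.41% (Ccnd3, PROSER1 KO) and 12.8% (Ccne1, wild-type).

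**Figure D1:**
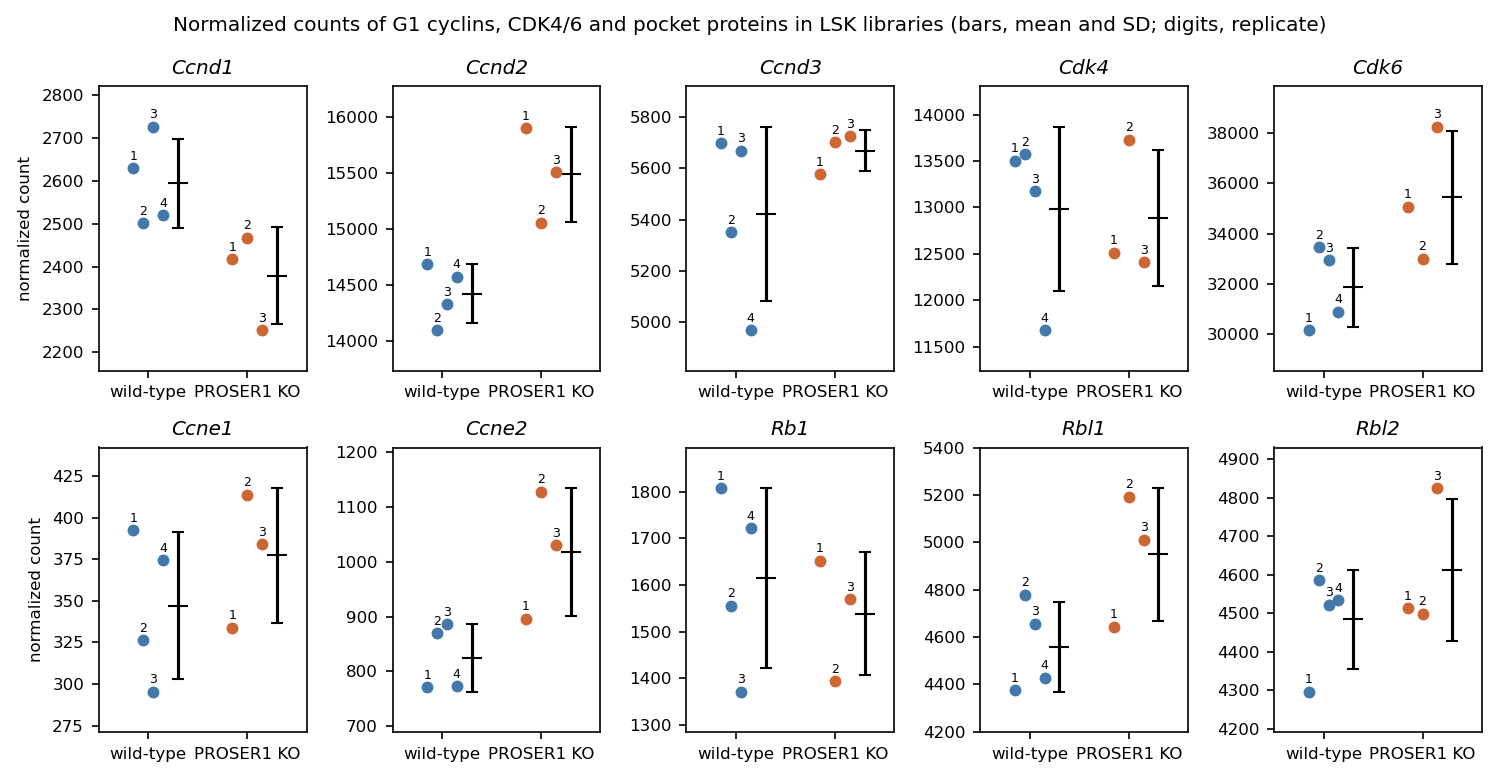
Normalized counts of each of the 10 genes (vertical axes, which do not start at 0) in the 4 wild-type and 3 PROSER1 KO libraries, with the replicate number at each point and the mean and SD as black bars. The groups are separate for Ccnd1, Ccnd2 and Ccne2 and overlap for the other 7 genes.

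**Figure D2:**
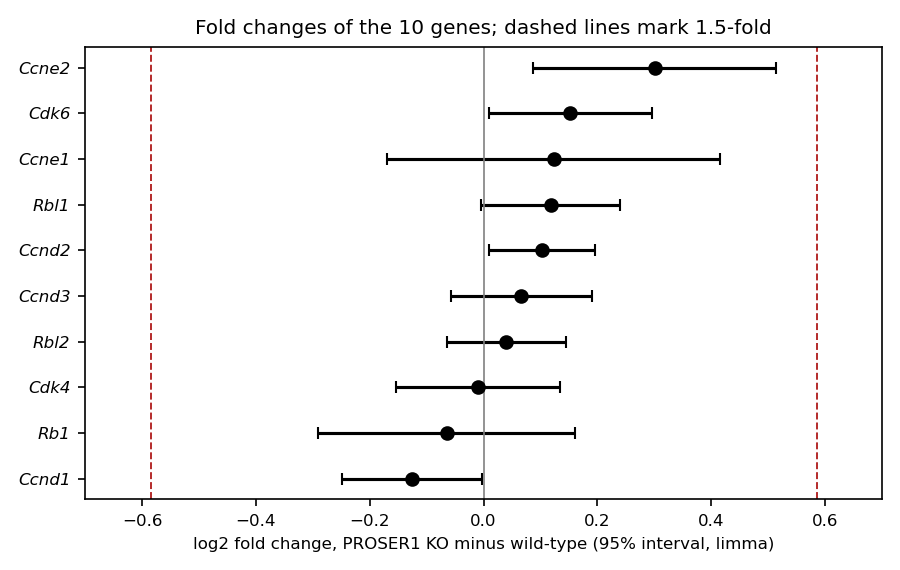
Log2 fold change of each gene (horizontal axis, PROSER1 KO minus wild-type) with its 95% interval from limma, and dashed lines at a 1.5-fold change in either direction. All 10 intervals lie between the dashed lines, and those of Ccnd1, Ccnd2, Cdk6 and Ccne2 leave out 0.

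Among the 3 D-type cyclins, the Ccnd1 values lay lower and the Ccnd2 values higher under the PROSER1 KO label, each by less than 10% of its level, and Ccnd3 overlapped. Ccnd1 (ENSMUSG00000070348, reverse strand of chromosome 7, 144929931 to 144939925), the cyclin D1 gene, was counted at 2629, 2502, 2726 and 2520.3 (normalized counts, wild-type 1 to 4) against 2417, 2468 and 2251 (PROSER1 KO 1 to 3, the replicate order kept for every gene). All 3 libraries labelled PROSER1 KO were below all 4 wild-type libraries, the nearest by 34.1 normalized counts. Wild-type averaged 2594 ± 104 (SD, n = 4) against 2379 ± 113 (SD, n = 3), which gave -0.13 as log2 fold change (SE, the standard error, 0.055, limma adjusted p = 0.503).

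Ccnd2 (ENSMUSG00000000184, reverse strand of chromosome 6, 127125162 to 127152193) encodes cyclin D2, known in blood cells as a target of cytokine signals. It showed normalized counts of 14682, 14093, 14327 and 14573 in wild-type and 15904, 15055 and 15510.1 under the PROSER1 KO label, and the groups were separate by 373. Wild-type averaged 14419 ± 263 (SD, n = 4) against 15490 ± 425 (SD, n = 3), and the log2 fold change was 0.10 (SE 0.041, limma adjusted p = 0.455). Plasma cells can express this cyclin as well. All 10 plasma cell genes had log2 fold changes below 0 (median -0.27, 0 called), in the direction opposite to Ccnd2, and their part in its level was not tested. In these libraries a smaller number of cells of a type and less RNA per cell cannot be told apart.

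Ccnd3 (ENSMUSG00000034165, forward strand of chromosome 17, 47505051 to 47599691), the cyclin D3 gene, had 5699, 5350.2, 5669 and 4969 normalized counts in wild-type and 5577, 5702 and 5726 under the PROSER1 KO label. Wild-type replicate 4 was the lowest library, PROSER1 KO replicates 2 and 3 were the highest, and replicate 1 lay among the wild-type libraries. The log2 fold change was 0.07 (SE 0.055, limma adjusted p = 0.740), and 0.03 without wild-type replicate 4.

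The balance between the D-type cyclins was compared as ratios of normalized counts within a library, which do not depend on the size factor. The log2 ratio of Ccnd1 to Ccnd2 lay between -2.53 and -2.39 in wild-type and between -2.78 and -2.61 under the PROSER1 KO label. Its means differed by -0.23 (SE 0.055), a ratio 0.853 times that of wild-type. The groups were separate, which follows from the separation of both genes in opposite directions and is no further result. The log2 ratio of Ccnd1 to Ccnd3 was separate too, with a difference of -0.19 (SE 0.053, 2-sided exact permutation p = 0.0286, adjusted p = 0.10 over 7 ratios). That of Ccnd2 to Ccnd3 differed by 0.04 (SE 0.063, exact permutation p = 0.571) with overlapping groups. With 4 libraries against 3 the smallest p is 0.0286, so that no ratio could pass an adjusted p-value of 0.05 unless at least 5 of the 7 were separate, and none did.

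**Figure D3:**
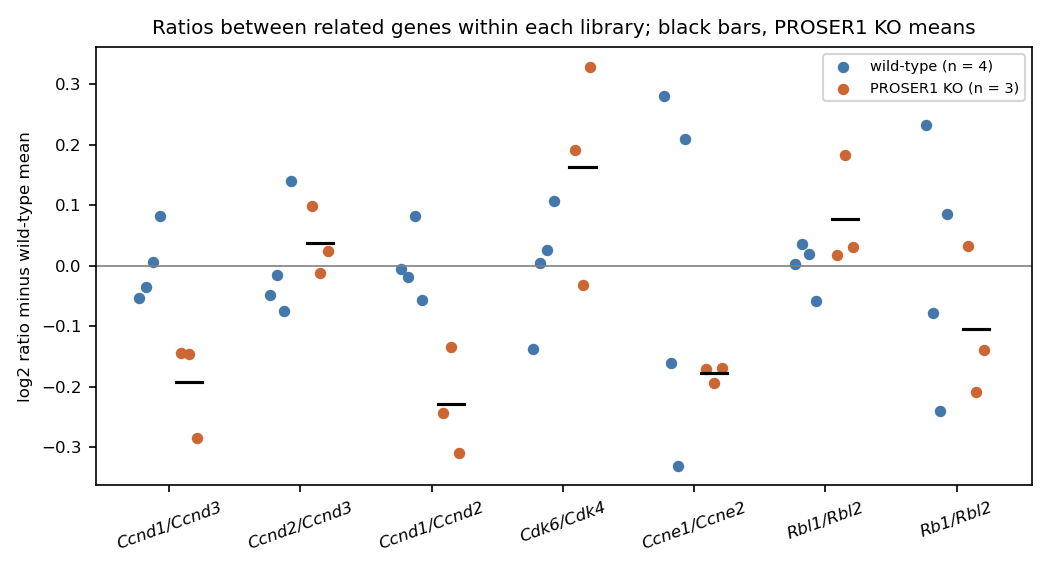
Log2 ratio of normalized counts for 7 pairs of related genes (horizontal axis), set to the wild-type mean of that pair (vertical axis, log2 units), with 1 point per library and a black bar at the mean of the PROSER1 KO libraries. The 3 PROSER1 KO points lie below all wild-type points for Ccnd1/Ccnd3 and Ccnd1/Ccnd2, and the groups overlap for the other 5 pairs.

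The kinase genes were the most abundant of the family for their length, with group means that differed 1.11-fold for Cdk6 and hardly for Cdk4, neither passing the test. Cdk6 (ENSMUSG00000040274, forward strand of chromosome 5, 3341485 to 3531008) showed normalized counts of 30150.4, 33449, 32945 and 30888 in wild-type and 35079, 32997 and 38263 under the PROSER1 KO label. Replicates 1 and 3 of the latter were above all wild-type libraries, and replicate 2 lay between wild-type replicates 3 and 2. Wild-type averaged 31858 ± 1588 (SD, n = 4) against 35446 ± 2652 (SD, n = 3), and the log2 fold change was 0.15 (SE 0.064, limma adjusted p = 0.472), and 0.10 without PROSER1 KO replicate 3.

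Cdk4 (ENSMUSG00000006728, forward strand of chromosome 10, 127063534 to 127067920) had 13506, 13574, 13172 and 11676 normalized counts in wild-type and 12512, 13730 and 12408 under the PROSER1 KO label. The highest and the lowest library came from different groups, and every other library lay between them. The log2 fold change was -0.01 (SE 0.064, limma adjusted p = 0.978), and its sign turned under 5 of 18 alternatives, quantile normalization and single libraries left out, with a range of -0.06, without wild-type replicate 4, to 0.02, without PROSER1 KO replicate 3. The log2 ratio of Cdk6 to Cdk4 was 1.30 ± 0.102 (SD, n = 4) and 1.46 ± 0.181 (SD, n = 3), a difference that was within the spread (exact permutation p = 0.200, adjusted p = 0.350).

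Cyclin E2 showed the widest difference of the 10 genes, and cyclin E1 none beyond its spread. Ccne2 (ENSMUSG00000028212, forward strand of chromosome 4, 11191351 to 11204779) showed normalized counts of 770.3, 869.9, 886 and 772 in wild-type and 896, 1128 and 1030.2 under the PROSER1 KO label. The groups were separate, but PROSER1 KO replicate 1 exceeded wild-type replicate 3 by only 9.89 normalized counts, less than the SD within either group. Wild-type averaged 825 ± 62.1 (SD, n = 4) against 1018 ± 116 (SD, n = 3), and the log2 fold change was 0.30 (SE 0.095, 1.23-fold, limma adjusted p = 0.334). The 95% interval of the fold ran from 1.06 to 1.43. With DESeq2 the adjusted p-value was 0.124, the lowest of any of the 10 genes with any tool run. With each library left out in turn and under the other alternatives, its log2 fold change stayed between 0.22 and 0.39. The 0.22 was without PROSER1 KO replicate 2, where the 95% interval, -0.00279 to 0.449, included 0.

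Ccne1 (ENSMUSG00000002068, reverse strand of chromosome 7, 38097984 to 38107534) had 392, 326, 295 and 374 normalized counts in wild-type and 334, 414 and 384 under the PROSER1 KO label. The groups overlapped over most of their range (log2 fold change 0.12, SE 0.13, limma adjusted p = 0.807). With 1 library left out the value ran from 0.05, without wild-type replicate 3 or PROSER1 KO replicate 2, to 0.21, without PROSER1 KO replicate 1, and was 0.18 without wild-type replicate 1. Across the wild-type libraries Ccne1 and Ccne2 were not high in the same ones, while under the PROSER1 KO label both were lowest in replicate 1 and highest in replicate 2. The log2 ratio of Ccne1 to Ccne2 ran from -1.58 to -0.97 in wild-type, where replicates 1 and 4 were high, and from -1.44 to -1.42 under the PROSER1 KO label (exact permutation p = 0.343, adjusted p = 0.480).

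Of the pocket protein genes, which encode the inhibitors of E2F, Rbl1 lay mostly higher under the PROSER1 KO label and Rb1 and Rbl2 overlapped. Rbl1 (ENSMUSG00000027641, reverse strand of chromosome 2, 157145893 to 157204534) encodes p107, the pocket protein known for its rise in dividing cells and itself a target of E2F. The 250 bases before its RefSeq start (GRCm38.p6, chr2:157204535-157204784, reverse strand) are shown because they hold an E2F consensus, in capitals, whose first base is 18 bases before the start.
Rbl1 upstream: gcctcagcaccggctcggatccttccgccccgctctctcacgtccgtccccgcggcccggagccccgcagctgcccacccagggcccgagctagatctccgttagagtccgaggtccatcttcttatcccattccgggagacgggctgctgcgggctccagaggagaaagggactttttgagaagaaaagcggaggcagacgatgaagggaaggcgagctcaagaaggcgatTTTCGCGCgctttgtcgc

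The consensus was searched on both strands as TTTCCCGC, TTTCGCGC, TTTGCCGC and TTTGGCGC, and 1.86% of 32851 RefSeq windows of the same length hold one of them. Entries matched for 6 of the 10 genes (Ccnd3 with 2 starts, Cdk4, Cdk6, Ccne1, Rbl1 and Rbl2), and of these only Rbl1 had a match. Ccnd1, Ccnd2, Ccne2 and Rb1 had no entry.

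In the libraries, Rbl1 showed normalized counts of 4375, 4779, 4656 and 4428 in wild-type and 4644, 5192 and 5012 in those labelled PROSER1 KO. Replicates 2 and 3 of the latter were above all wild-type libraries, and replicate 1 lay below wild-type replicates 2 and 3. Wild-type averaged 4560 ± 190.2 (SD, n = 4) against 4949 ± 279 (SD, n = 3), and the log2 fold change was 0.12 (SE 0.054, limma adjusted p = 0.528).

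Rbl2 (ENSMUSG00000031666, forward strand of chromosome 8, 91070057 to 91123844) encodes p130, the pocket protein of resting cells that recruits the MuvB proteins into the DREAM repressor. It showed normalized counts of 4296, 4586, 4523 and 4535 in wild-type and 4514, 4499 and 4825 under the PROSER1 KO label. These values overlapped and varied little (log2 fold change 0.04, SE 0.047, limma adjusted p = 0.835). The value was 0.02 without wild-type replicate 1 and 0.00734 without PROSER1 KO replicate 3. The log2 ratio of Rbl1 to Rbl2 was 0.02 ± 0.041 (SD, n = 4) and 0.10 ± 0.092 (SD, n = 3), with overlapping groups (exact permutation p = 0.200, adjusted p = 0.350).

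Rb1 (ENSMUSG00000022105, reverse strand of chromosome 14, 73183673 to 73325822), the retinoblastoma gene itself, had 1808, 1556, 1371 and 1723 normalized counts in wild-type and 1652, 1394 and 1569.7 under the PROSER1 KO label. It varied more within wild-type (coefficient of variation 12%) than the other pocket protein genes (4.17% for Rbl1 and 2.87% for Rbl2), and the group means differed by less than that spread (log2 fold change -0.07, SE 0.10, limma adjusted p = 0.888). Its sign turned without PROSER1 KO replicate 2, to 0.00449, and it was -0.00798 without wild-type replicate 1, -0.14 without wild-type replicate 3 and -0.12 without PROSER1 KO replicate 1. The lowest Rb1 counts were in wild-type replicate 3 and PROSER1 KO replicate 2. The same libraries had the lowest median deviation of the B-lineage list (-0.61 and -0.36 on the log2 scale) and of the plasma cell list (-0.47 and -0.50). They were also the highest of their groups in the lists of G1/S genes (0.06 and 0.17) and G2/M genes (0.13 and 0.27) described below. The part of B-lineage, plasma or dividing cells in the Rb1 level was not tested. The log2 ratio of Rb1 to Rbl2 differed by -0.11 (SE 0.13, exact permutation p = 0.457).

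Compared per kb of exon, the order of the 10 genes was nearly the same in both groups. Normalized counts were divided by the length of all annotated exons of a gene (GENCODE M21, GRCm38). On this scale Cdk4 had 3996 ± 273 (SD, n = 4) normalized counts per kb in wild-type, Cdk6 2277 ± 114, Ccnd2 1532 ± 27.9 and Rbl1 761 ± 31.7, and the ranges of these neighbours over the 7 libraries did not overlap. Then came Ccnd3 (618 ± 38.8), Rbl2 (593 ± 17.0) and Ccnd1 (551 ± 22.2), whose ranges overlapped from 1 gene to the next. Rb1 (268 ± 32.1) and Ccne2 (236 ± 17.8) were not separate either, and stood in reverse order under the PROSER1 KO label, where Ccne2 had 291 ± 33.3 (SD, n = 3) and Rb1 256 ± 22. Ccne1 was lowest in all libraries, with 130.4 ± 16.7 in wild-type. Over all tested genes with an exon length (16195), Cdk4 stood at percentile 97.4 by this level, Cdk6 at 95.6 and Ccnd2 at 92.8, while Ccne1 stood at 41.0.

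The order depended on the exons counted. With the exons of the basic transcript set alone, Ccnd3 had 2216 ± 139 normalized counts per kb in wild-type and Ccnd2 2149 ± 39.2, with overlapping ranges, because the annotated exons of Ccnd3 shrink from 8775 to 2447 bases. By all exons, Ccnd2 made up 56.7% ± 1.26 (SD, n = 4) of the summed level of the 3 D-type cyclins in wild-type and 58.8% ± 1.01 (SD, n = 3) under the PROSER1 KO label, and by basic exons 42.5% ± 1.43 and 43.9% ± 0.95. The share of Ccnd1 was 20.4% ± 0.454 and 18.1% ± 0.844 by all exons, and 13.7% ± 0.287 and 12.1% ± 0.582 by basic exons. Either way, Ccnd1 had the lowest level per kb of the D-type cyclins.

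**Figure D4:**
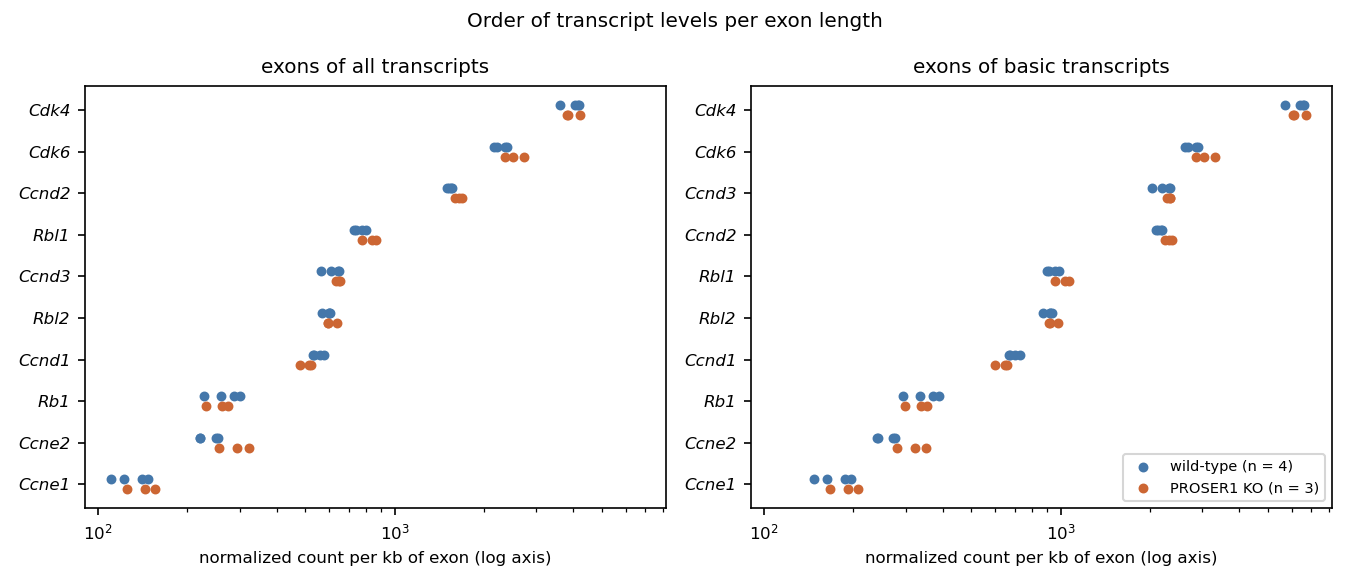
Normalized counts per kb of exon (horizontal axes, log scale) of the 10 genes in each library, with lengths from all annotated exons (left) or from the basic transcript set (right). Cdk4 and Cdk6 lie highest and Ccne1 lowest in both panels, and Ccnd3 moves up to the level of Ccnd2 in the right panel.

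The most abundant of these genes per kb, Cdk4, is known as a target of MYC, and its upstream window is shown for the E-boxes it holds. The 250 bases before its RefSeq start (GRCm38.p6, chr10:127063285-127063534, forward strand) contain 4 copies of the palindrome CACGTG, in capitals, beginning 172, 118, 98 and 11 bases before the start.
Cdk4 upstream: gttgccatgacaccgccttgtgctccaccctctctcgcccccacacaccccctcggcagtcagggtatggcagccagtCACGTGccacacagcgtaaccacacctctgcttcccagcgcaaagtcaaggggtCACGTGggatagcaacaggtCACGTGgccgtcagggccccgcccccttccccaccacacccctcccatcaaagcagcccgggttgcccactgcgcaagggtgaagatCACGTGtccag

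Of all RefSeq windows of this length, 6.02% hold at least 1 copy. Cdk6 had 1, beginning 220 bases before its start, and the windows of Ccnd3, Ccne1, Rbl1 and Rbl2 had 0. These matches describe the letters of a window and are no evidence of binding in LSK cells.

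The partners of these genes in the pathway were described from 7 lists of 91 genes, of which 89 were tested, since Ccna1 and Cdkn2b were below the minimum mean. limma called 0 of them (0.258% of all genes), edgeR 0 and DESeq2 0, and without adjustment p was under 0.05 for 11 with limma, all 11 higher (5.0% of all genes were higher at that level). Among the E2F factors and their DP partners, 7 of 10 had log2 fold changes above 0 (median 0.05), against 50.6% of all genes tested. The lowest p-value was that of E2f2, an activating E2F, with 892, 923, 908 and 827 normalized counts in wild-type and 1117, 1039 and 1045 under the PROSER1 KO label. These groups did not overlap (log2 fold change 0.27, SE 0.067, limma adjusted p = 0.204). In this list 1 gene was separate and higher and 1 separate and lower, against 5.17% and 4.83% of all genes tested.

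Among the inhibitors of these kinases, 4 of 6 tested genes had values above 0 (median 0.07). Cdkn2c, whose product p18 binds CDK4 and CDK6, had the lowest p-value, with 1020.3, 1085, 1282 and 1042 normalized counts in wild-type and 1375, 1685 and 1507 under the PROSER1 KO label. Its adjusted p-value was 0.132 with limma and 0.000727 with DESeq2, in both cases at a 1.38-fold change that is below the minimum for a call. It is the 1 gene of the 7 lists with a DESeq2 adjusted p-value under 0.05, a level that 1.65% of all genes reached.

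In the list of CDK2 and its activators, 6 of 6 tested genes were above 0 (median 0.03). Ccna2, the cyclin A of S phase, had the lowest p-value there (log2 fold change 0.20, SE 0.11, limma adjusted p = 0.587). Of the MuvB and DREAM genes, 8 of 9 were above 0 (median 0.10), and Dyrk1a, a kinase that promotes DREAM assembly, had the lowest p-value (log2 fold change 0.10, SE 0.042, limma adjusted p = 0.504). Of the genes for the turnover of D- and E-type cyclins, 4 of 10 were above 0 (median -0.01). Skp2, a ubiquitin ligase subunit known for the removal of p27, had a log2 fold change of 0.28 (SE 0.085, limma adjusted p = 0.322).

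The last pair of lists held genes that E2F drives at G1/S and genes of G2/M. Of the 25 G1/S genes 23 were above 0 (median 0.06), and of the 23 G2/M genes 23 (median 0.18), against 50.6% of all genes tested and a median of 0.00148. The lowest p-values were those of Cdc6, the replication licensing factor (log2 fold change 0.17, SE 0.079, limma adjusted p = 0.522), and of Cenpe, a kinetochore motor (log2 fold change 0.27, SE 0.081, limma adjusted p = 0.309). For the G1/S list the median deviation from the mean of the 7 libraries was -0.04, 0.03, 0.06 and -0.16 in wild-type and -0.02, 0.17 and -0.02 under the PROSER1 KO label. The groups overlapped, with PROSER1 KO replicate 2 highest, wild-type replicate 4 lowest and PROSER1 KO replicates 1 and 3 below wild-type replicates 2 and 3. These genes were measured in the same 7 libraries, so that their counts are not independent observations.

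The libraries highest in Ccne2 and Rbl1 were also those highest in G2/M genes. Wild-type replicate 3 was the highest wild-type library in the G2/M list, the G1/S list (0.06) and Ccne2 (-0.02). For Rbl1 it was at -0.02, below wild-type replicate 2 (0.02). On the log2 scale, the median deviation of the G2/M list from the mean of the 7 libraries was 0.27 in PROSER1 KO replicate 2, 0.16 in replicate 3 and 0.13 in wild-type replicate 3, and between -0.15 and -0.10 in the other 4 libraries. Ccne2 deviated by 0.33 and Rbl1 by 0.14 in PROSER1 KO replicate 2, and by 0.20 and 0.09 in replicate 3, the highest libraries of both genes. PROSER1 KO replicate 1, at -0.10 for the G2/M list, was at -0.01 for Ccne2 and -0.02 for Rbl1. Ccnd1 and Ccnd2 did not follow this order, since replicate 2 was the library labelled PROSER1 KO nearest to wild-type in both (-0.02 and 0.02). The part of the share of dividing cells in any of these levels was not tested.

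**Figure D5:**
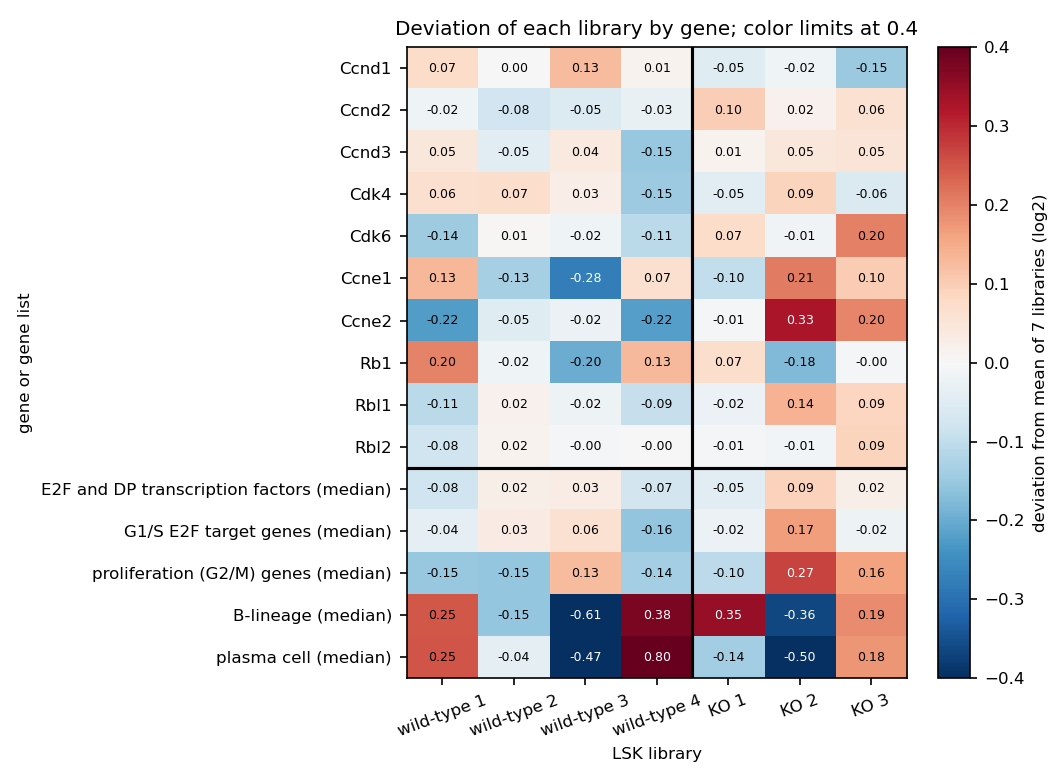
Deviation of each library (columns) from the mean of the 7 libraries, in log2 units, for the 10 genes and, below the line, the median of 5 gene lists, with colors limited at 0.4 in either direction and the value printed in each cell. PROSER1 KO replicates 2 and 3 are highest in Ccne2, Rbl1 and the G2/M list, and the B-lineage and plasma cell lists vary between libraries of the same group.

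Markers of LSK and other cells gave 0 calls with limma in 75 tested genes of 9 lists, 0 with edgeR and 1 with DESeq2. The shares over all genes tested were 0.258%, 0.246% and 0.873%. The 1 gene called, Klrb1b, was lower under the PROSER1 KO label (DESeq2 log2 fold change -1.17). Without adjustment, the limma p-value was under 0.05 for 10 of the 75, against 9.73% of all genes tested. The median log2 fold changes were 0.03 for the LSK gate genes, 0.03 for long-term HSC, 0.30 for B-lineage, -0.27 for plasma cell, -0.06 for T and innate lymphoid, -0.03 for granulocyte and monocyte, -0.000432 for erythroid, 0.36 for megakaryocyte and 0.51 for stromal and endothelial genes. Of the 7 tested stromal and endothelial genes, 4 were above 0 and 3 below. Their median deviation overlapped between groups, at -0.996 to 0.548 in wild-type and 0.116 to 0.920 under the PROSER1 KO label. PROSER1 KO replicate 1 had 697 normalized counts of Cd3g, 197 of Cd3e and 106 of Cd3d, against at most 52.9, 24.0 and 21.1 in any other library. The median deviation of the T and innate lymphoid list was highest in wild-type replicate 1 (0.51), followed by PROSER1 KO replicate 1 (0.42). The part of T cells in the levels of the 10 genes was not tested. The summed level of the B-lineage list was 5111 to 9350 normalized counts in wild-type and 5446 to 10132 under the PROSER1 KO label. That of the megakaryocyte list was 7062 to 8906 and 9238 to 12026, without overlap, and most of it came from Itga2b and Vwf. The median deviation of the list overlapped between groups, at -0.22 to 0.04 and -0.31 to 0.64, and was lowest in PROSER1 KO replicate 3. None of its 6 genes passed the test. Its part in the levels of the 10 genes was not tested.

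Reads of 8 of the 10 genes are uncertain in part, since 2.63% (Cdk6) to 23.4% (Ccnd1) of their exon bases are shared with genes on the other strand. Besides Ccnd1, the genes with separate groups shared 17.4% (Ccne2) and 7.86% (Ccnd2). The gene opposite Ccne2 had 1594 to 1912 normalized counts, more than Ccne2 in any library. The library kit keeps the strand, but the strand setting of the counting was not given in the sources used here. Ccne1 and Rbl1 share no exon bases. The processed pseudogene Ccnd3-ps had at most 13.5 normalized counts in any library.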

How the data were processed

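RNA of LSK cells was sequenced in 4 wild-type and 3 PROSER1 KO libraries (polyA RNA, directional kit). Before they deposited the table, the authors trimmed the read pairs (Trimmomatic), mapped them to mm10 (STAR), counted them per gene (featureCounts; the methods name GENCODE M25, the table header vM10) and scaled each library by its DESeq2 size factor, so that the deposited file holds a normalized signal per gene. Read pairs were recovered from each library's smallest step, and 100% of values were whole within 0.01. Depth was 33143619 to 45140743 read pairs. A count of 0 would allow 3 read pairs (2.54 to 3.48 normalized counts), for counting error only. The 685 genes known by identifier alone took up to 0.135% of read pairs and were tested with the rest. There were 0 unused columns.

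Groups were compared with limma 3.58.1 (R 4.3.3, trended eBayes) on log2(normalized count + 1), at a minimum mean of 10, with Benjamini-Hochberg adjustment over all genes. This scale understates changes of genes with low counts. edgeR 4.0.16 (quasi-likelihood) and DESeq2 1.42.0 ran on recovered read pairs. Ratios used exact permutation over 35 splits. Procedures were tested on simulated data with changes of 1.5-fold or more, so that their power for the smaller differences of the 10 genes was not measured. Named genes were the 10 genes, Proser1, and in each other pathway list the called genes or else the gene with the lowest p-value. Klrb1b and the marker genes given with values were named after their values were seen. Genes and lists were chosen with earlier results of these data known. Protein sequences were not used here.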

Additional observations from a re-analysis of the deposited data

Results flagged for a closer look

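Of 34 quantities tested in the 4 wild-type libraries (the 10 genes, 7 ratios and 17 list medians), 2 had 1 library far from the other 3, as Dixon's ratio of the gap to the range measures it, and chance flags about 1 in 20. For the median deviation of the G2/M list the ratio was 0.934, with wild-type replicate 3 at 0.13 and the other 3 at -0.15 to -0.14. For CDK2 and its activators it was 0.833, with replicate 1 at -0.08 and the highest of the others at -0.00210. None of the 10 genes and none of the 7 ratios passed the critical value. The groups of 3 PROSER1 KO libraries were too small for this test.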

How the results depend on the processing

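The count of 0 among the 10 genes held under every alternative run, without a fold change minimum and with each library left out included. Few genes were called under any of them (17 to 165 over all genes), so that a count of 0 among 10 says little. The signs of the 7 ratios held at pseudocounts of 0.1 and 10, on recovered read pairs and with each library left out. With 3 against 3 or 4 against 2 libraries the exact test cannot reach 0.05, so that those ratios are values only. The log2 fold change of Cdk4 was 0.00624 with quantile normalization, 0.00997 without wild-type replicate 1, 0.0124 without wild-type replicate 2, 0.0104 without PROSER1 KO replicate 1 and 0.0164 without PROSER1 KO replicate 3, in a range of -0.0600 to 0.0164 with 1 library left out, and that of Rb1 was 0.00449 without PROSER1 KO replicate 2, in a range of -0.14 to 0.00449. The cause was not tested. The count of separate groups among the 10 genes was 3 to 5 with 1 library left out, and the 5, without PROSER1 KO replicate 1, follows in part from fewer libraries, since the share over all genes was then 19.0%. Over all genes, the 42 calls became 17 without the mean-variance trend, 80 with robust variance, 165 with DESeq2 and 23 to 42 with 1 library left out, the 23 without PROSER1 KO replicate 2. With the replicate number as a block there were 35 calls and 0 of the 10 genes. The labels do not say whether libraries of the same number were handled together. Deviations of same-numbered libraries correlated by 0.0226, 0.0575 and -0.106, and not every library correlated best with its own number. Correlations this weak cannot decide whether the numbers pair the libraries.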
